A study of Mus musculus with 38 samples.

Results

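The genes described here encode the neuropeptides somatostatin (Sst) and cortistatin (Cort) and the somatostatin receptors 1 to 4 (Sstr1, Sstr2, Sstr3 and Sstr4). They were chosen by name as one peptide family, and all 6 were found among the 25230 genes of the count table. The fifth receptor gene of the mouse, Sstr5, was not in the chosen set and is given beside it where the whole receptor family is described. RNA came from adBNST tissue of mice whose genotype was labelled WT. The adBNST is the anterodorsal part of the BNST, the bed nucleus of the stria terminalis, which lies in the basal forebrain and is linked to sustained fear and hormonal stress responses. Stressed mice went through chronic variable mild stress, a course of mild stressors in random order, for 6 weeks. There were 9 libraries of stressed females, 10 of control females, 9 of stressed males and 10 of control males. The labels number the libraries without saying that each came from a separate mouse, so every p-value below measures the spread between libraries, which may be technical. No age or strain is given in the labels.

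Somatostatin is made by a class of GABA neurons that inhibits the dendrites of neighbouring cells, and in the BNST it is one of the peptides by which inhibitory neurons are told apart. It is cut from a longer precursor and is released with GABA. Cortistatin is a related peptide, made by cortical interneurons among others, and it binds the same receptors. These receptors couple to inhibitory G proteins, which lower the activity of adenylyl cyclase and open potassium channels of the GIRK type. Transcription of Sst is the classic case of induction by cyclic AMP, through the factor CREB and the DNA element CRE in its promoter.

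The promoters are shown because that element is the best known link between neuronal signalling and this gene family. Promoter windows from 250 bases before to 50 bases after the RefSeq start (GRCm38.p6) were held for 5 of the 6 genes, all but Sstr1, and both strands were searched. The full CRE, TGACGTCA, was in the windows of Sst and Sstr2, and in 588 of 32851 promoters in all (1.79%). Its shorter core, TGACG or CGTCA, is part of the full element and was also in the window of Cort and in 1 of the pair of windows of Sstr3. That core was in 20.8% of all promoters. No window of the family held the consensus of the glucocorticoid response element, which 0.475% of all promoters hold. The window of Sstr4 held neither element. The 160 bases before the start follow for the 4 windows with a match, 5′ to 3′ on the gene's strand, with the CRE or its core in capitals.
Sst, chr16:23890845-23891004, minus strand: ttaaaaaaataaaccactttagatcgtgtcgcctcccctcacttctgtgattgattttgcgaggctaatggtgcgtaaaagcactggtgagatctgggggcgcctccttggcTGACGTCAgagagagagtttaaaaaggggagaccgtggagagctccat
Sstr2, chr11:113619167-113619326, plus strand: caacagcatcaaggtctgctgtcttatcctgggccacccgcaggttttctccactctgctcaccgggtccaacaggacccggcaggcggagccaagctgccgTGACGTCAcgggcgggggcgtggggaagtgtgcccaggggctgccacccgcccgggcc
Cort, chr4:149126764-149126923, minus strand: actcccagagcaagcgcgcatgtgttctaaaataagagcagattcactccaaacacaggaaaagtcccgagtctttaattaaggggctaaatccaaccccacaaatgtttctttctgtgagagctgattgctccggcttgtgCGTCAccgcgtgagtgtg
Sstr3, chr15:78544346-78544505, minus strand: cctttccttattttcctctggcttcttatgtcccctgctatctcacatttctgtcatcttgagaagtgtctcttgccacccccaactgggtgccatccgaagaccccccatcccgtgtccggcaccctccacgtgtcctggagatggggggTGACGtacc
The CRE began 48 bases before the start of Sst and 58 bases before that of Sstr2. The core began 18 bases before the start of Cort and 9 bases before that of Sstr3. GENCODE M21 places the start of Sst, and that of Sstr3, farther upstream than the RefSeq starts used here. The CRE of Sst and the whole printed stretch of Sstr3 thus lie inside the gene bodies that GENCODE gives. These are matches of letters in a window, and no binding was measured.

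In GRCm38, with GENCODE M21, Sst lies on chr16:23889573-23890958 (minus strand) and Cort on chr4:149125034-149126763 (minus). Sstr1 lies on chr12:58211772-58214444 (plus) and Sstr2 on chr11:113619342-113626028 (plus). Sstr3 lies on chr15:78537008-78544685 (minus) and Sstr4 on chr2:148395344-148396767 (plus). All are protein-coding. The gene body of Sstr2 overlaps that of Slc39a11 on the opposite strand, with no overlap of exons, and Cenps lies 357 bases from Cort on the same strand. Whether the counting used strand is not stated by the labels.

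Total counts ran from 14.57 to 35.32 M in stressed females, 18.11 to 33.77 M in control females, 15.9 to 36.11 M in stressed males and 9.06 to 84.84 M in control males. Earlier results of these data had shown 2 structures that cut across the groups, and both touch this family. The 18 libraries numbered from 6 differed widely from the 20 numbered up to 5 in every group, and the labels do not say what the numbers stand for. In addition 5 libraries stood apart, stressed females 1 and 2, control females 1 and 6 and control male 3. The summed level of 6 oligodendrocyte markers was 19800 to 25000 CPM (counts scaled to the size of the library) in these 5, against 4300 to 15400 CPM in the other 33, and that of 6 striatal markers was 1970 to 3950 CPM, against 540 to 3040 CPM. BNST markers were present in all libraries, at a sum of 104 to 275 CPM for 6 genes, and so were the GABA neuron markers Gad1, Gad2 and Slc32a1, at 1400 to 2520 CPM. No marker list had a gene at 0 in every library, striatum, cortex and septum included. In bulk tissue, fewer cells of a type and less RNA per cell cannot be told apart.

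Sst was the dominant transcript of the family. Divided by the median length of the annotated transcripts, it averaged 432 ± 226 CPM per kb over the 38 libraries (SD), 49.1 times the next gene, and it was above that gene in 38 of 38 libraries. Its rank by mean CPM was 488 among the 16309 genes tested. The receptors followed with Sstr1 at 8.8 ± 2.68, Sstr2 at 6.91 ± 1.59, Sstr3 at 2.72 ± 0.97, Sstr4 at 2.34 ± 1.04 and Sstr5 at 1.86 ± 0.649 CPM per kb. Cort was lowest at 1.32 ± 0.663 CPM per kb. Sstr1 was above Sstr2 in 31 of 38 libraries and Sstr2 was above Sstr3 in 38 of 38. The neighbours Sstr3 and Sstr4 did not differ beyond their spread, since Sstr3 was the higher in 20 of 38 libraries. With the longest transcript in place of the median, Sstr2 stood at 4.96 and Sstr3 at 1.5 CPM per kb, which put Sstr3 below Sstr4 and Sstr5. As a ratio of CPM, Sst stood at a median of 326 times Cort, with 171 to 1500 over the libraries.

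Counting noise was negligible for Sst, with 2572 to 18455 counts per library, and large for Cort, with 3 to 92 counts. At the median of 21.5 counts, the counting error of Cort alone is 21.6%, against a spread of its level between libraries of 50.2% of the mean. The other members had 93 to 1454 counts (Sstr1), 97 to 743 (Sstr2), 33 to 517 (Sstr3) and 1 to 249 (Sstr4). All 6 passed the filter on low counts.

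**Figure D1:**
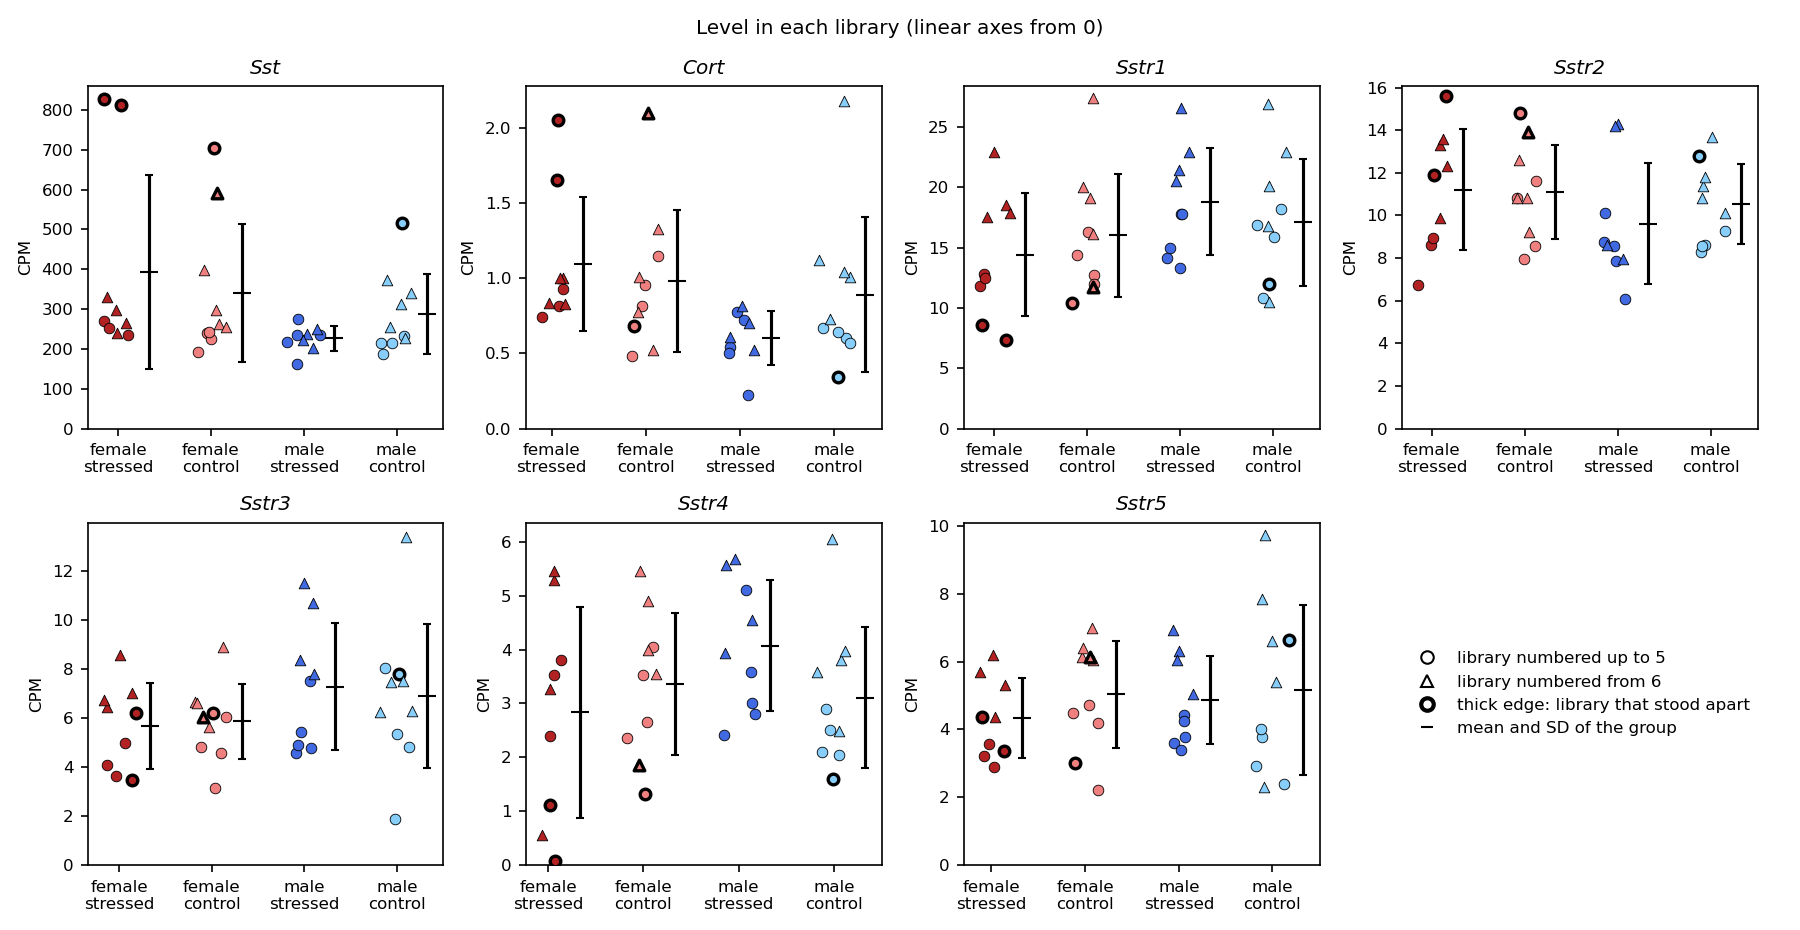
Level of each gene in each of the 38 libraries, in CPM on linear axes that start at 0. Points are libraries, round where numbered up to 5 and triangular where numbered from 6, with a thick edge for the 5 that stood apart, and bars are the group's mean and SD. In the Sst panel those 5 lie at 516 to 826 CPM, above all the others, and the groups of every gene overlap.

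The stress comparisons asked whether the family responds to chronic stress in either sex. It showed no change past the test in females or in males. By edgeR's quasi-likelihood test, with p-values adjusted by Benjamini-Hochberg over the 16309 genes and a threshold of 0.05, 0 of the 6 genes passed in females and 0 in males, where the background of genes called was 0% in each. At an unadjusted p under 0.05 there were 308 genes in females and 655 in males, and DESeq2 and limma voom called 0 genes as well. The changes below are log2 ratios with SE, stressed over control.

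Sst, the peptide precursor, had 236, 269 and 826 CPM in stressed females and 192, 259 and 703 CPM in control females, as lowest, median and highest. The highest value of each of these groups came from a library that stood apart. The log2 change was 0.20 ± 0.25, with a 95% interval of -0.30 to 0.71 (adjusted p = 1). It was 0.58 ± 0.40 in the libraries numbered up to 5 and -0.35 ± 0.21 in those numbered from 6. Over all libraries the mean was 392 ± 244 CPM in stressed and 341 ± 173 CPM in control females (SD). Without the 5 libraries the log2 change was 0.03 ± 0.13. Those 5 hold the highest Sst values of the series. Leaving them out lowers both means, so it cannot show what the difference rested on.

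In males, Sst had 161, 234 and 276 CPM in stressed and 186, 244 and 516 CPM in control libraries. The 9 stressed males were close to each other, with a mean of 226 ± 32 CPM, against 287 ± 101 CPM in control males. In 7 of the 9, Sst was below the control median, and 4 of 10 control males were above every stressed one. The log2 change was -0.34 ± 0.25 (interval -0.85 to 0.16, adjusted p = 0.863). It was -0.20 ± 0.12 without the control male that stood apart and the other 4 such libraries. It was -0.27 ± 0.40 in the libraries numbered up to 5 and -0.40 ± 0.21 in those from 6.

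Cort, the related peptide, had 0.74, 0.928 and 2.05 CPM in stressed females and 0.48, 0.884 and 2.1 CPM in control females, with a log2 change of 0.13 ± 0.28. In males it had 0.223, 0.61 and 0.818 CPM in stressed and 0.344, 0.699 and 2.18 CPM in control libraries. The ranges overlapped in both sexes, although 4 of 10 control males lay above every stressed male. The log2 change in males was -0.59 ± 0.29 (interval -1.17 to -0.01), with an unadjusted p of 0.0448 and an adjusted p of 0.863. This value leaned on control male 7, the highest library for Cort, and was -0.34 without it. It was -0.09 ± 0.36 in the libraries numbered up to 5 and -0.88 ± 0.39 in those from 6.

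Sstr1, the receptor with the highest level per length, had 7.3, 12.8 and 22.9 CPM in stressed females and 10.4, 15.2 and 27.4 CPM in control females, with a log2 change of -0.14 ± 0.19. In males it had 13.3, 17.8 and 26.6 CPM in stressed and 10.5, 16.8 and 26.9 CPM in control libraries, with a change of 0.14 ± 0.19. The ranges overlapped in both sexes. The intervals ran from -0.54 to 0.25 in females and from -0.26 to 0.53 in males.

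Sstr2, the receptor that many clinical somatostatin analogues bind best, had 6.74, 11.9 and 15.6 CPM in stressed females and 7.97, 10.8 and 14.8 CPM in control females. The corresponding values were 6.08, 8.59 and 14.3 CPM in stressed males and 8.29, 10.5 and 13.7 CPM in control males. The log2 changes were 0.02 ± 0.15 in females and -0.13 ± 0.15 in males. Of the family it had the narrowest intervals, -0.29 to 0.32 in females and -0.44 to 0.18 in males.

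Sstr3, the receptor that sits on the primary cilium of neurons, averaged 5.68 ± 1.74 CPM in stressed females and 5.86 ± 1.52 CPM in control females. It averaged 7.28 ± 2.6 CPM in stressed males and 6.88 ± 2.94 CPM in control males (SD). The log2 changes were -0.04 ± 0.23 in females and 0.09 ± 0.23 in males, and the ranges overlapped in both sexes.

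Sstr4 had 0.0785, 3.26 and 5.46 CPM in stressed females and 1.31, 3.53 and 5.45 CPM in control females. Its lowest value, in stressed female 1, was a single count, with an exact 95% Poisson interval of 0.00199 to 0.437 CPM that covers counting error only. Stressed males had 2.42, 3.93 and 5.69 CPM and control males 1.6, 2.7 and 6.06 CPM. In 8 of 9 stressed males Sstr4 was above the control median, and the ranges overlapped. The log2 changes were -0.23 ± 0.34 in females and 0.38 ± 0.34 in males (interval -0.31 to 1.06, adjusted p = 0.863).

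The series' design names the interaction of sex and condition, the difference between the stress effect of males and that of females. It was -0.55 ± 0.35 for Sst, -0.73 ± 0.40 for Cort and 0.60 ± 0.48 for Sstr4 on the log2 scale, with an adjusted p of 0.845 for each. The others lay between -0.14 ± 0.22 (Sstr2) and 0.28 ± 0.27 (Sstr1). No member passed, with a background of 0% and 736 genes at an unadjusted p under 0.05, and DESeq2 and limma voom called 0 genes too. The value for Sst was -0.86 ± 0.56 in the libraries numbered up to 5, -0.05 ± 0.29 in those from 6 and -0.24 ± 0.18 without the 5 that stood apart. Averaged over the sexes, the stress effect was between -0.23 ± 0.20 (Cort) and 0.08 ± 0.24 (Sstr4), with a background of 0%, 239 genes at an unadjusted p under 0.05 and adjusted p near 1 throughout. DESeq2 and limma voom likewise called 0 genes in this comparison.

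**Figure D2:**
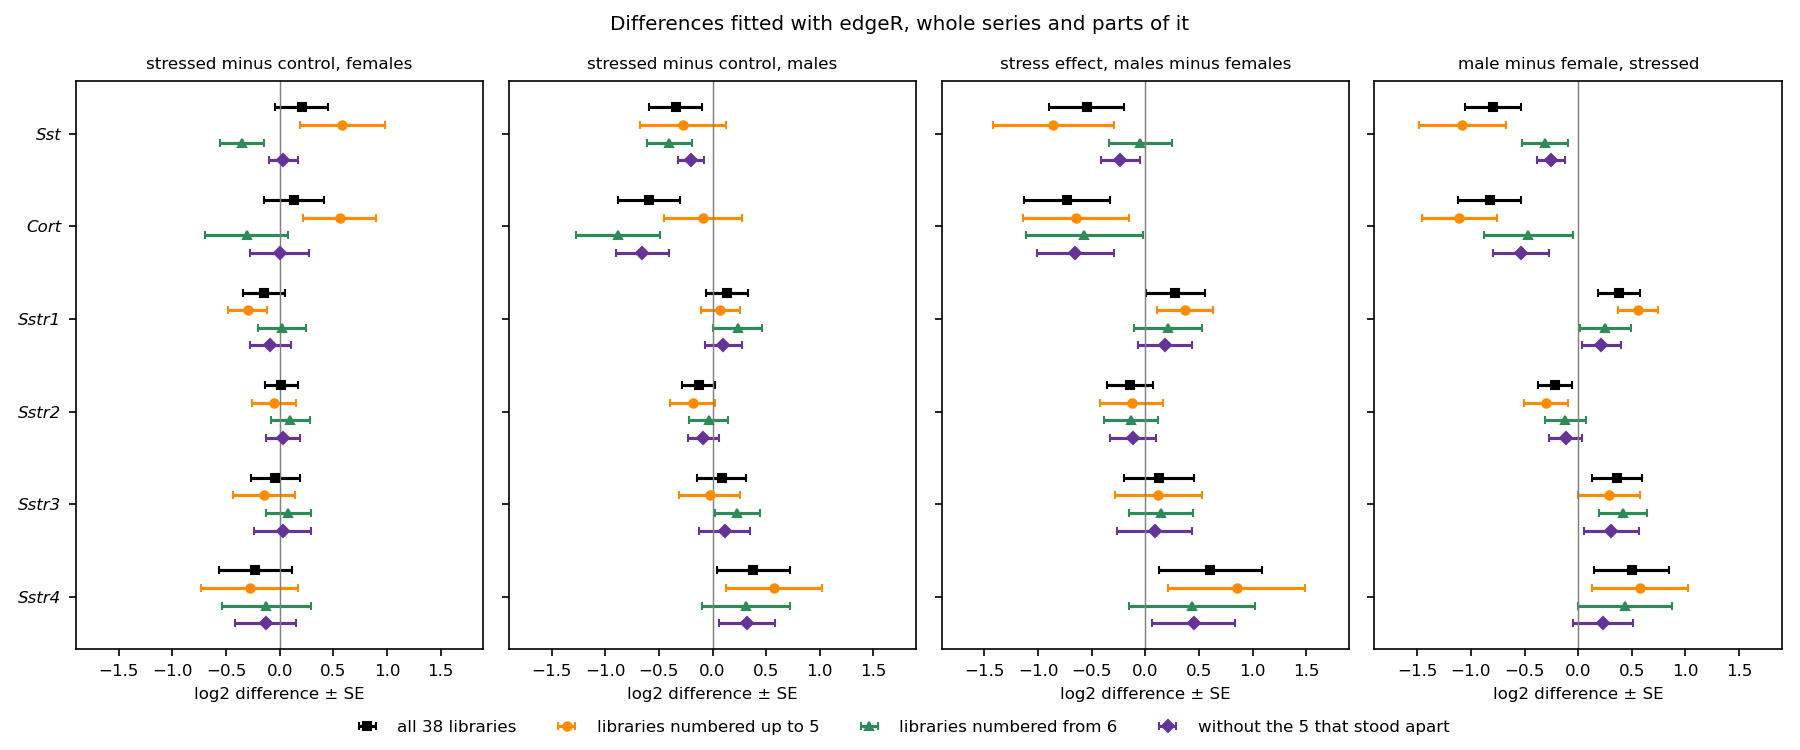
Differences of the 6 genes on the log2 scale with SE (horizontal axis), in panels for stress in females, stress in males, the interaction, and male minus female in stressed mice. Marks are the fit on all libraries, on those numbered up to 5, on those from 6, and without the 5 that stood apart. For Sst in females the mark lies at 0.58 in the libraries up to 5 and at -0.35 in those from 6, and male minus female in stressed mice is below 0 for Sst and Cort in all 4 fits.

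Among stressed mice the mean of either peptide was lower in males than in females, at 226 ± 32 and 392 ± 244 CPM for Sst and 0.602 ± 0.182 and 1.09 ± 0.448 CPM for Cort (SD, n = 9 each). Neither difference passed the test over all genes. For Cort, 9 of 9 stressed males were below the median of the stressed females, and 7 of 9 were below all of the stressed females. Sst was below the female median in 8 of 9 stressed males and below all of the stressed females in 6. The ranges of the groups overlapped for both genes. The log2 difference, male minus female, was -0.79 ± 0.26 for Sst (interval -1.32 to -0.27, unadjusted p = 0.00378) and -0.82 ± 0.30 for Cort (interval -1.42 to -0.23, unadjusted p = 0.0081), with an adjusted p of 0.378 for both by edgeR. By unadjusted p, Sst came at rank 162 and Cort at rank 322 of the genes tested. The background of genes called was 0.0858%, or 14 genes, and 1816 genes had an unadjusted p under 0.05 by edgeR. How many of all genes show such counts of libraries below the female median or range is not given here. The differences are therefore not shown to be particular to the peptides.

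Without the 5 libraries that stood apart, stressed females 1 and 2 among them, the difference was -0.25 ± 0.13 for Sst and -0.53 ± 0.26 for Cort. Within the libraries numbered up to 5 it was -1.08 ± 0.40 and -1.11 ± 0.35, and within those from 6 it was -0.31 ± 0.22 and -0.46 ± 0.41, for Sst and Cort in that order. The oligodendrocyte sum ran from 4440 to 14500 CPM in stressed males and from 4300 to 25000 CPM in stressed females. The sum of striatal markers ran from 540 to 1810 CPM in stressed males and from 893 to 3950 CPM in stressed females. All 6 striatal markers gave a log2 difference below 0, with a median of -0.55, and 0 of them passed. The sum of cortical markers had a median of 24.0 CPM in stressed males and 11.0 CPM in stressed females. Of 5 choroid plexus markers, all above 0, 2 passed as higher in stressed males, Ttr at 6.66 ± 1.32 and Kcnj13 at 3.97 ± 0.86 (adjusted p = 0.0164 and 0.045 by edgeR). The choroid plexus sum had a median of 39.1 CPM in stressed males and 36.7 CPM in stressed females. The part of these markers in the peptide differences was not tested. Stressed male 5 had the highest choroid plexus sum, 3150 CPM, against at most 47.5 CPM in stressed females. That library had the lowest Cort value, 0.223 CPM from 5 counts. Its exact 95% Poisson interval, for counting error only, was 0.0723 to 0.52 CPM. Its Sst, at 276 CPM, was the highest of the stressed males.

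The receptors did not pass the test either. Sstr1 was above the female median in 9 of 9 stressed males, at 0.38 ± 0.20 (adjusted p = 0.470). Sstr3 stood at 0.36 ± 0.23, Sstr4 at 0.50 ± 0.35 and Sstr2 at -0.22 ± 0.16. In controls, where 0.0674% of genes were called, male minus female was -0.25 ± 0.24 for Sst, -0.10 ± 0.27 for Cort and 0.23 ± 0.22 for Sstr3, with an adjusted p near 1 for every member. Stressed and control mice thus gave Sst differences of -0.79 and -0.25, and the test of their difference is the interaction above, which did not pass.

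The makeup of the receptor transcripts was described as shares, with no test. As a share of the summed receptor level per length, Sstr1 gave 35.8 ± 6.7% in stressed females, 37.3 ± 5.7% in control females, 41.7 ± 2.79% in stressed males and 39.2 ± 6.14% in control males. Sstr2 gave 35.7 ± 10.9%, 32.9 ± 7.91%, 26 ± 3.56% and 30.7 ± 6.26% in the same groups. Sstr3, Sstr4 and Sstr5 gave between 7.72% and 12.5% each. The share of Sstr1 was 27.1 ± 2.58% in the 5 libraries that stood apart and 40.2 ± 3.78% in the other 33, with no overlap. The shares of Sstr2 and Sstr4 overlapped between them, with Sstr2 at 46.8 ± 8.39% against 29.0 ± 4.93%, and Sstr4 at 4.15 ± 2.22% against 11.2 ± 3.04%.

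**Figure D3:**
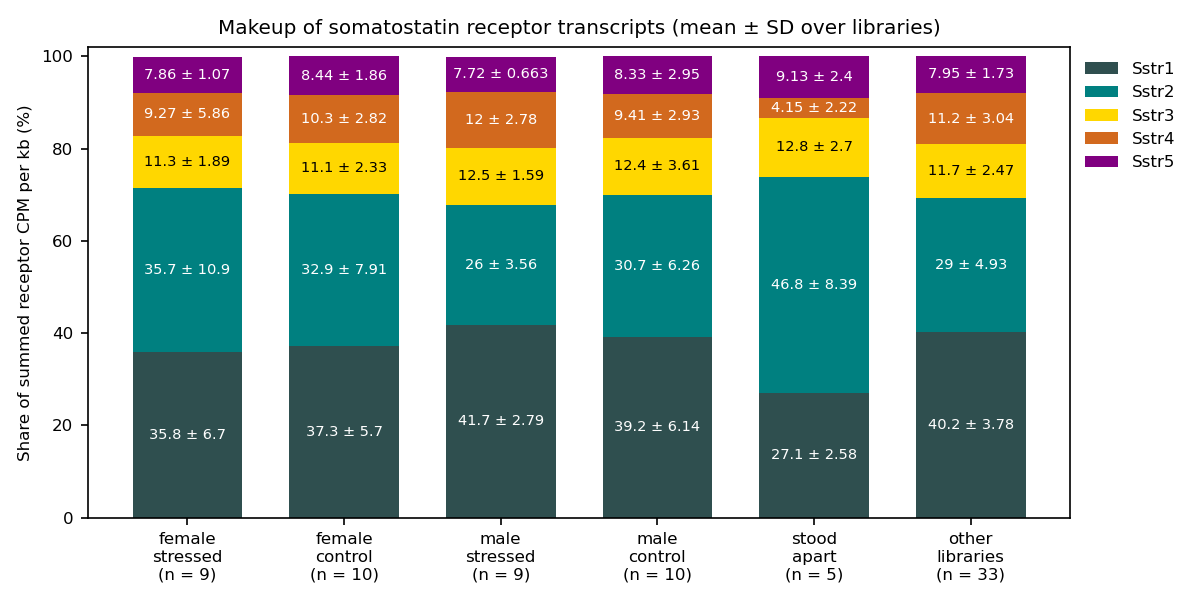
Share of each receptor in the summed receptor level (CPM per kb of transcript, %), as the mean over the libraries of a group with its SD printed. The groups lie between 35.8% and 41.7% for Sstr1, while the libraries that stood apart have more Sstr2, 46.8% against 29.0% in the other libraries, and less Sstr1 and Sstr4.

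Those 5 libraries had been set apart on the first principal component over all genes, these included, so their values are a description. Sst was at 516 to 826 CPM in them and at 161 to 399 CPM in the other 33, with no overlap. The share of all genes that separate these libraries without overlap is not given here. The gap is therefore not shown to be particular to Sst or to the share of Sstr1. Sstr4 was at 0.0785 to 1.85 CPM against 0.551 to 6.06 CPM, Sstr1 at 7.3 to 12 against 10.5 to 27.4 CPM, and Sstr2 at 11.9 to 15.6 against 6.08 to 14.3 CPM. Cort overlapped between them. It ran from 0.344 to 2.1 CPM in the 5, with a median of 1.65 CPM. In the others it ran from 0.223 to 2.18 CPM, with a median of 0.778 CPM. The lowest Cort value of the 5, in control male 3, was 3 counts. The high oligodendrocyte and striatal sums of the same libraries, given above, moved with these values, and their part was not tested.

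The receptors passed the test in 1 comparison, that of the library numbers. In a fit with the 4 group means, libraries numbered from 6 had higher levels than those numbered up to 5 of all 4 member receptors, while neither peptide passed. The log2 difference was 0.57 ± 0.10 for Sstr1 (adjusted p = 2.5e-05), 0.63 ± 0.13 for Sstr3 (adjusted p = 0.000114), 0.63 ± 0.22 for Sstr4 (adjusted p = 0.0159) and 0.27 ± 0.10 for Sstr2 (adjusted p = 0.0257) by edgeR. Sstr5 gave 0.70 ± 0.12 (adjusted p = 1.52e-05). Of all genes, 45.5% were called in this comparison, 23.2% higher and 22.3% lower, so a call by itself says little about the family. The call of Sstr2 was lost without stressed male 7 (0.22, adjusted p = 0.0585) and without stressed male 8 (0.23, adjusted p = 0.0524).

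In each of the 4 groups the mean of every receptor was higher in the libraries numbered from 6. For Sstr1 the difference of the mean log2 CPM was 0.88 in stressed females, 0.48 in control females, 0.55 in stressed males and 0.35 in control males. For Sstr3 it was 0.70, 0.46, 0.82 and 0.65 in the same groups. Over all groups, Sstr1 had 10.5, 20.1 and 27.4 CPM from number 6 and 7.3, 13.1 and 18.2 CPM up to number 5, and Sstr3 had 5.64, 7.25 and 13.4 against 1.88, 4.87 and 8.04 CPM. The sets overlapped for both genes. Sstr4 had 0.551, 3.98 and 6.06 CPM against 0.0785, 2.59 and 5.11 CPM.

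Sst gave -0.08 ± 0.18 in this comparison (adjusted p = 0.737 by edgeR). Without the 5 libraries that stood apart it gave 0.27 (adjusted p = 0.00311 by edgeR). Those 5 hold the highest Sst values of the series, and 4 of them were numbered up to 5. Leaving them out lowers Sst mainly in that set, so the second value cannot show whether the sets differ. Cort gave 0.37 ± 0.20 (adjusted p = 0.119). All 4 ependymal and all 3 septal markers were also called higher from number 6, as were 3 of 6 BNST markers, and all 6 oligodendrocyte and all 6 striatal markers lower. Their part in the receptor differences was not tested.

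Genes of the wider somatostatin pathway showed no stress effect past the test either. Of 78 genes in 9 lists, chosen with earlier results of these data known, 0 passed in females, in males, in the interaction or between the sexes. The list medians lay between -0.11 and 0.05 in females and between -0.01 and 0.20 in males, against a median of 0.01 and -0.02 over all genes. Of the converting enzymes that cut peptide precursors, Pcsk1 gave -0.47 ± 0.23 in females and 0.45 ± 0.23 in males, with unadjusted p of 0.0517 and 0.0576. In the list chosen for somatostatin interneurons, Calb2, the calcium binder calretinin, gave 0.51 ± 0.24 in males, and Nos1, which makes nitric oxide, gave -0.18 ± 0.14 in females. Which cells of the tissue made the transcripts of this list was not tested. Of the CREB pathway, the coactivators Ep300 and Crebbp gave 0.25 ± 0.11 and 0.28 ± 0.13 in males. The GIRK channel subunits Kcnj6 and Kcnj3 gave 0.63 ± 0.40 and 0.21 ± 0.15 in males.

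Among the remaining lists, Mpdz, a multi-domain scaffold, gave 0.32 ± 0.15 in males, and Ptpn6, the phosphatase SHP-1, 0.31 ± 0.18 in females. The cilium genes Ift27, a transport subunit, and Mchr1, a ciliary receptor, gave -0.31 ± 0.17 and -0.36 ± 0.21 in males. Arrb2, an arrestin, gave -0.15 ± 0.13 and the G protein Gnai2 -0.17 ± 0.16 in males. The adenylyl cyclases Adcy8 and Adcy2 gave 0.17 ± 0.14 and 0.07 ± 0.07, and the peptidases Nln and Prep 0.13 ± 0.09 and 0.09 ± 0.08, again in males. None of these passed, with an adjusted p of 0.863 or above by edgeR.

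Between the number sets the pathway changed in both directions. Higher from number 6 were 3 of 4 GIRK subunits, with Kcnj6 at 1.02 ± 0.23 and Kcnj9 at 0.40 ± 0.07, and 3 of 6 scaffolds and phosphatases, among them Shank2 at 0.20 ± 0.06. Of the adenylyl cyclases 4 of 8 rose, with Adcy6 at 0.73 ± 0.12, and 3 fell, among them the striatal Adcy5 at -0.47 ± 0.12. Of the peptide-degrading enzymes 2 of 6 were higher and Mme, the peptidase neprilysin, which cleaves somatostatin, was lower at -1.26 ± 0.16 (adjusted p = 5.86e-08 by edgeR). Of the interneuron list 6 of 14 were higher, with Pnoc at 0.73 ± 0.13, and 2 lower, with Calb1 at -0.65 ± 0.11. The precursor-processing list had 2 of 10 higher, with Pcsk6 at 0.34 ± 0.05, and 1 lower, Pcsk2 at -0.28 ± 0.07. The CREB list had 3 of 10 each way, with Crtc3 at 0.30 ± 0.06 and Creb1 at -0.44 ± 0.09. The cilium list had 4 of 13 higher and 3 lower, with Bbs1 at 0.26 ± 0.04, and the list of G proteins and arrestins had 2 of 7 higher and 3 lower, with Arrb1 at 0.14 ± 0.04 and Gnai1 at -0.31 ± 0.08. In all, 45 of the 78 genes were called. The counts in 1 direction stand against a background of 23.2% of genes called higher and 22.3% called lower, and the total against 45.5%.

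How the members varied together was computed within each number set, on log2 CPM centred on the group means, as 15 pairs in 2 sets with p-values adjusted over the 30 tests. In the libraries numbered from 6, Sst and Cort gave r = 0.818 and rho = 0.688 over 18 libraries (permutation tests, adjusted p = 0.0003 and 0.0152), and r = 0.808 without the 2 libraries farthest from the median of Sst. Without control female 6, which stood apart, r was 0.707 and rho 0.51 over 17 libraries (permutation tests, adjusted p = 0.0438 and 0.185), and r was 0.552 when the 2 libraries farthest from the median of Sst were left out as well. In the libraries numbered up to 5 the same pair gave r = 0.199 over 20, and r = -0.054 over the 16 that did not stand apart.

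In the libraries up to 5, Sst went with Sstr2 (r = 0.85) and against Sstr4 (r = -0.698) and Sstr1 (r = -0.683), with adjusted p of 0.0003, 0.00202 and 0.00594 by permutation tests. Sstr1 went with Sstr4 (r = 0.725, rho = 0.72) and Sstr2 against Sstr4 (r = -0.625, rho = -0.468), with adjusted p of 0.0003 and 0.006 for the first pair and 0.0104 and 0.118 for the second by permutation tests. These values include the 4 libraries of that set that stood apart, which had its highest Sst levels. Leaving them out narrows the range of Sst, so it cannot show what the relations rest on. Over the other 16, r of Sst was 0.531 with Sstr2, 0.109 with Sstr4 and 0.031 with Sstr1, with adjusted p of 0.203, 0.769 and 0.907 by permutation tests. Over the same 16, r of Sstr4 was 0.431 with Sstr1 and 0.494 with Sstr2, with adjusted p of 0.326 and 0.253 by permutation tests. From number 6, Sst and Sstr4 gave r = -0.589 and rho = -0.612 (permutation tests, adjusted p = 0.0558 and 0.0347), and r = -0.503 (adjusted p = 0.203) without control female 6. Sst and Sstr3 gave r = -0.416 and rho = -0.598 there (adjusted p = 0.222 and 0.0381 by permutation tests). Sstr2 and Sstr4 gave r = -0.472 and rho = -0.614 (adjusted p = 0.133 and 0.0347 by permutation tests). Without control female 6, rho was -0.532 for Sst and Sstr4, -0.512 for Sst and Sstr3 and -0.539 for Sstr2 and Sstr4. None of these passed (adjusted p = 0.185 for each by permutation tests). Sstr1 and Sstr3 gave r = 0.642 and rho = 0.496 in all libraries from number 6 (adjusted p = 0.0225 and 0.118 by permutation tests). Over all 20 libraries up to number 5, that pair gave r = 0.209 and rho = 0.071 (adjusted p = 0.48 and 0.795 by permutation tests). Without the libraries that stood apart, r was 0.629 over 16 libraries up to number 5 and 0.666 over 17 from number 6. Neither passed (adjusted p = 0.113 and 0.0708 by permutation tests). When the 2 libraries farthest from the median of Sstr1 were left out as well, r was 0.263 and 0.489 in that order. All values of a library share its depth and scaling, and the counting noise of Cort weakens any relation with it.

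**Figure D4:**
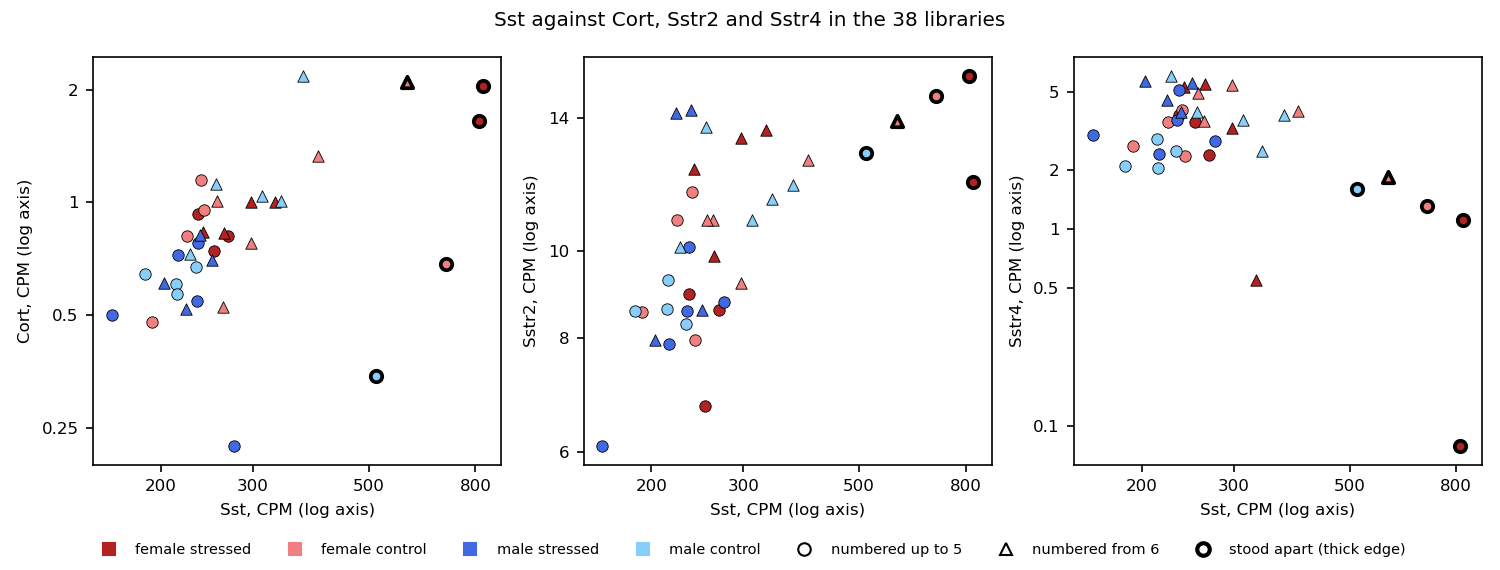
Cort, Sstr2 and Sstr4 against Sst in the 38 libraries, all in CPM on log axes. Colours mark the groups, round points are libraries numbered up to 5, triangles those from 6, and a thick edge marks the 5 that stood apart. Those 5 lie to the right in every panel, at 516 CPM of Sst or more, high for Sstr2 and low for Sstr4, while for Cort they are spread from 0.344 to 2.1 CPM.

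The genes most like each member were found by Spearman's rho of log2 CPM over the 38 libraries after removing group means, among 14523 genes with a mean of at least 1 CPM. For Sst these were 0610010K14Rik (0.94), Eif3k (0.926), Uqcr11 (0.925), 1110008P14Rik (0.924) and Thra (0.924). For Cort they were Nudt14 (0.748), Mfap2 (0.708), Nob1 (0.699), Dclk2 (0.689) and Dhrs1 (0.688). Sstr1 was nearest to Oprl1, the receptor of the peptide nociceptin (0.935), then to Nell1 (0.933), Sez6l (0.931), Igsf1 (0.921) and Zcchc18 (0.919). Sstr2 was nearest to Ccdc184 (0.851), Pofut2 (0.847), Rgs19 (0.845), Tm4sf5 (0.834) and Hs3st2 (0.834).

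For Sstr3 the nearest were Shisal1 (0.887), 6430548M08Rik (0.885), Disp3 (0.884), Gfra2 (0.869) and Adgra1 (0.865). For Sstr4 they included Pi4ka (0.876), Rab3gap1 (0.875), Chrm5 (0.866) and Igf2r (0.864). No member of the family was among the 5 nearest genes of another member. These values span the number sets and include the libraries that stood apart, and without those libraries the first gene of each list gave 0.875 for Sst, 0.714 for Cort, 0.914 for Sstr1, 0.825 for Sstr2, 0.927 for Sstr3 and 0.867 for Sstr4. Within the libraries numbered up to 5, Sstr1 and Oprl1 gave 0.74 and Sstr3 and Shisal1 gave 0.696.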

How the data were processed

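The deposited table held whole-number read counts per gene for 38 adBNST libraries, with no scaling, as judged from its values. Per the labels' protocols, poly-A RNA was enriched and stranded libraries were made. Per the submitters' processing notes, the tools were STAR, featureCounts and DESeq2 and the build mm10; their versions, the annotation and the strand setting were not given in these sources. Every column was matched to a library by its name. Genes kept by filterByExpr (16309) were tested with edgeR 4.0.16 (R 4.3.3), with TMM scaling, 4 group means, the quasi-likelihood test and Benjamini-Hochberg adjustment. Levels are CPM on effective library sizes. The comparison of number sets added a term for libraries numbered from 6. Scaling, filter, DESeq2 1.42.0, limma voom 3.58.1 with quality weights, subsets and 38 refits without 1 library were the alternatives. The fit was tested on simulated data. The nearest pair of libraries in a group had a chi-square per gene of 8.19 to 19.8, so none was a copy of another. Correlations used 100000 resamples and log2 CPM with a prior count of 2. Intervals are 95%. Transcript lengths came from GENCODE M21. Promoters came from RefSeq. The text names all 6 members, the 5 most similar genes of each apart from 1 that is not reported here, and from each list up to 4 members that passed or, in the stress comparisons, the 2 with the smallest p; some are left out for length. Members, lists and libraries that stood apart were chosen with earlier results of these data known.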

Additional observations from a re-analysis of the deposited data

Results flagged for a closer look

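In 4 of 28 sets of values, 1 gene in 1 group each, a library lay far from the others of its group by Dixon's criterion. In independent sets of normally distributed values, chance flags about 1 in 20. These sets share libraries and hold CPM without a log scale, so that rate need not hold here. Cort was at 2.1 CPM in control female 6, one of the libraries that stood apart, with the next control female at 1.33 CPM. Cort was at 2.18 CPM in control male 7, with the next control male at 1.12 CPM. Sstr3 was at 13.4 CPM in control male 9, with the next at 8.04 CPM. Sstr4 was at 6.06 CPM in control male 10, with the next at 3.97 CPM.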

How the results depend on the processing

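No stress, interaction or sex difference of the 6 genes passed the test under any alternative run, so the changes of sign listed here are among values that did not pass, and their cause was not tested. For stress in females, the libraries numbered from 6 alone gave -0.354 for Sst, -0.309 for Cort, 0.02 for Sstr1 and 0.0821 for Sstr3, those up to 5 gave -0.0552 for Sstr2, and limma voom gave 0.0933 for Sstr3. Without the 5 libraries that stood apart, Cort gave -0.000321 and Sstr3 0.027. Refits without 1 library ran from -0.0116 to 0.385 for Sst, -0.0234 to 0.309 for Cort, -0.0533 to 0.0866 for Sstr2 and -0.134 to 0.0442 for Sstr3. In males, Sstr3 gave -0.0242 in the libraries up to 5 and -0.0224 to 0.25 without 1 library. For the average over the sexes, the libraries up to 5 gave 0.156 for Sst, 0.235 for Cort and -0.0844 for Sstr3, and those from 6 gave 0.126 for Sstr1 and 0.0313 for Sstr2. Sstr1 gave 0.0614 with limma voom, 0.00412 with the term for library numbers and 0.00668 without the 5 libraries. Refits without 1 library gave -0.174 to 0.0203 for Sst, -0.0526 to 0.0617 for Sstr1, -0.0319 to 0.105 for Sstr3 and -0.00631 to 0.164 for Sstr4.

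For male minus female in controls, the count of genes called was 11 with edgeR, 21 with DESeq2, 30 with limma voom and 7 in the libraries up to 5. Sst gave 0.03 with limma voom. The libraries from 6 gave 0.106 for Cort, 0.0133 for Sstr2 and 0.0019 for Sstr4. Cort gave 0.121 without the 5 libraries and -0.352 to 0.083 without 1 library. In stressed mice the count was 14 with edgeR, 24 with DESeq2, 8 in the libraries up to 5 and 6 in those from 6. Both counts ran from 9 to 15 without 1 library.

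Between the number sets, Sst gave 0.189 with limma voom, 0.273 without the 5 libraries, and within groups 0.286 in control females, 0.041 in stressed males and 0.23 in control males. Cort gave -0.299 within stressed females. Refits without 1 library gave -0.155 to 0.0315 for Sst.

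The labels give the groups the same replicate numbers. Over 55 pairs of libraries with the same number, the correlation of deviations from the group means had a median of 0.23, against 0.24 for other numbers of the same set and -0.22 across sets, and 40 pairs were over 0.1. Of 38 libraries, 8 correlated best with their own number, so the numbers were not taken as pairs. With a replicate block, 0 genes were called in each stress comparison, 13 between the sexes in controls and 14 in stressed mice. The block gave -0.016 for Sstr2 in stressed females against controls and 0.0417 for Sstr1 averaged over the sexes. Depth limits Cort most, with 3 counts in its shallowest library.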
